A study of Mus musculus with 23 samples.

Results

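Fatty acid oxidation and fasting genes were followed in mouse bone with and without type 1 diabetes (T1D). The genes were Pdk4, Angptl4, Plin2, Cpt1a, Acadl, Acot1, Acot2, Ucp2, and Ucp3. They were chosen by name, with earlier results of these data known. Each was found by gene symbol in the TPM table and by gene ID in the count table. All 9 had a protein-coding entry, and all 9 were among the 14364 genes tested, out of 17644 genes in the TPM table and 67228 entries in the count table. A second entry with the symbol Plin2 is a pseudogene in RefSeq that lies within the Plin2 locus. It had too few counts to be tested and was left out.

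RNA-Seq was available for 23 female C57BL6/N mice at 11 weeks of age, with 1 library per mouse from the femur and tibia of 1 hind limb after most marrow had been spun out. There were 5 nondiabetic wild-type mice (WT Control), 6 diabetic wild-type mice (WT T1D), and 6 mice in each of the matching knockout groups (KO Control and KO T1D). T1D mice had received streptozotocin, a drug toxic to insulin-producing β cells, at 100 mg/kg per injection after overnight fasts, and had been diabetic for 3 weeks. Control mice had received saline. Mice labelled KO carried a global knockout of Sarm1, which encodes an enzyme that cleaves NAD and drives axon degeneration. All of them but A3766 had IDs from A3670 to A3683, and no WT mouse did. Differences between genotypes can thus hardly be told apart from differences between ID ranges. Whether food was withheld before bone was collected is not given in the sources used here. Total counts per mouse were between 16938101 and 20135592.

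When insulin is low or food is withheld, adipose tissue releases fatty acids, and other tissues burn them in mitochondria in place of glucose. Fatty acids that enter cells also activate the PPAR nuclear receptors, and low insulin frees FOXO factors to enter the nucleus. Both kinds of factor raise a set of genes that spare glucose, carry fatty acids into mitochondria, and store or dispose of the excess. Pdk4 is a kinase that shuts off pyruvate dehydrogenase. Angptl4 is a secreted inhibitor of lipoprotein lipase, and Plin2 coats lipid droplets. Cpt1a makes the acylcarnitines that enter mitochondria, and Acadl carries out the first step of β-oxidation. Acot1, in the cytosol, and Acot2, in mitochondria, split acyl-CoA into free fatty acid and CoA. Ucp2 and Ucp3 are carriers of the inner mitochondrial membrane, and Ucp3 is typical of skeletal muscle.

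Libraries were checked first. Sarm1 RNA was low in all groups, at 0.402 ± 0.154 TPM in WT Control (SD, n = 5), 0.192 ± 0.0778 in WT T1D (SD, n = 6), 0.255 ± 0.156 in KO Control (SD, n = 6), and 0.372 ± 0.0928 in KO T1D (SD, n = 6). It did not differ between genotypes past the threshold, with an edgeR adjusted p of 0.999 in Control and 0.281 in T1D mice. Sarm1 RNA therefore did not check the genotype. Other genes did separate the labelled genotypes, with a lowest edgeR adjusted p of 2.01e-15 in Control and 1.23e-16 in T1D mice. The paper reports lower Sarm1 by qPCR in KO than in WT bone. Every direction given for KO mice below is that of the libraries labelled KO. Bone markers were abundant, but WT T1D mice A3905 and A3906 stood apart. Summed over 10 osteoblast and osteocyte markers, they had 6235 and 4817 CPM, against 53100 to 118000 in the other mice. Summed over 14 erythroid markers, they had 242000 and 237400 CPM, above the highest of the other mice, 182300. Neutrophil markers summed to 50030 and 45620 CPM in A3905 and A3906, against at most 42770 in the others. Macrophage and osteoclast markers summed to 5702 and 6040 CPM, against at most 4488. B cell markers summed to 181 and 220 CPM, against at least 428. Skeletal muscle sums of A3905 and A3906 lay within the range of the other mice. In bulk bone, fewer cells of a type and less RNA per cell cannot be told apart. Results are given with and without these 2 mice.

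Ucp2 was by far the most abundant of the 9 genes in every group, at 1410 ± 178 TPM in WT Control (SD, n = 5). TPM corrects for transcript length, so levels can be compared between genes on this scale. Acadl and Plin2 followed in WT Control, at 49.7 ± 7.72 and 48.7 ± 3.67 TPM (SD, n = 5), and their ranges overlapped. Cpt1a was at 30.3 ± 2.88, Angptl4 at 21.1 ± 3.90, and Pdk4 at 12.1 ± 3.98 TPM (SD, n = 5). The range of Cpt1a overlapped that of Angptl4, while Angptl4 lay wholly above Pdk4. The lowest were Acot2 at 4.05 ± 0.778, Acot1 at 2.13 ± 1.07, and Ucp3 at 1.21 ± 0.815 TPM (SD, n = 5), each overlapping the next. In WT T1D mice Angptl4 stood at 42.6 ± 8.38 TPM, ahead of Cpt1a at 38.0 ± 5.59, and Acot1 at 8.29 ± 6.69 stood ahead of Acot2 at 5.26 ± 1.52 (SD, n = 6), though the ranges overlapped in both pairs.

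**Figure D1:**
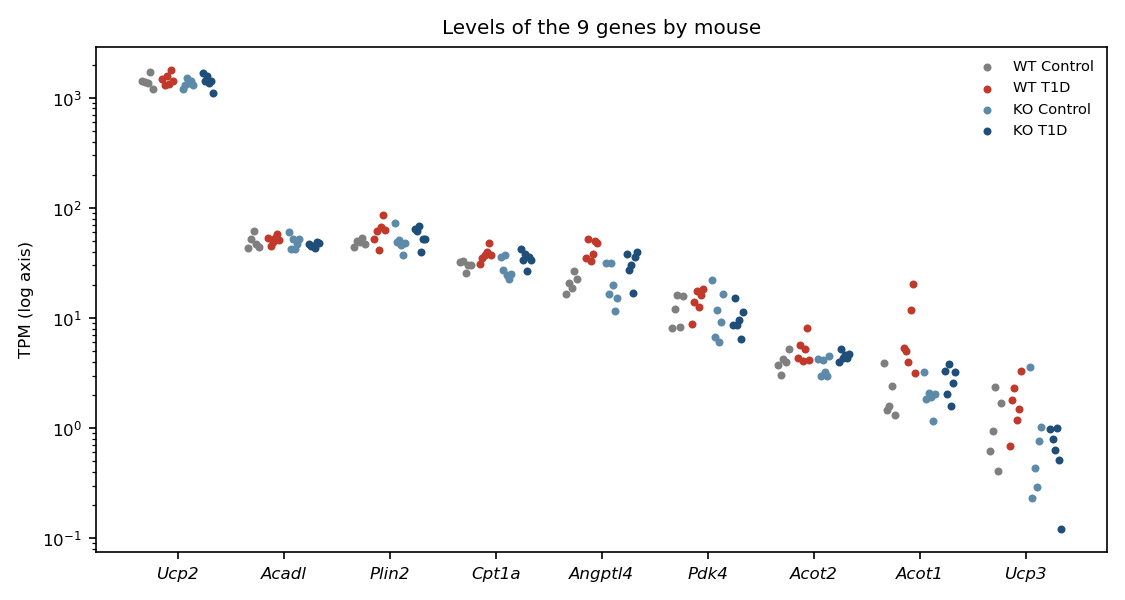
TPM of the 9 genes on a log axis, 1 point per mouse, in the order of their mean in WT Control, with the 4 groups side by side. Ucp2 lies above every other gene in every mouse, and Ucp3 has the lowest mean in all 4 groups.

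TPM and TMM-scaled counts set the groups apart differently. The median log2 difference over all tested genes, WT T1D minus WT Control, was -0.24 for log2 (TPM + 1) and -0.01 after TMM scaling of the counts. TMM takes most genes as unchanged, so its small median follows from the method and does not show which scale is right. Values are compared between mice as TMM-normalized CPM, counts scaled to an equal effective library size. The TPM result is given where it changed a call. On log2 (TPM + 1) the estimates for T1D in WT mice were 0.06 for Acadl and 0.07 for Ucp2, against 0.37 and 0.36 on TMM-scaled counts.

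With T1D, 4 of the 9 genes rose in WT mice. Acot1, Angptl4, Cpt1a, and Plin2 passed an adjusted p of 0.05 in edgeR's quasi-likelihood test, where 2.33% of all tested genes were called in either direction. Fitted to only the WT Control and WT T1D mice, edgeR called 0 of 9 and 0 genes in all, with an edgeR adjusted p of 0.0506 for Angptl4 and 0.175 for Acot1. DESeq2 called 6 of the 9, adding Acadl and Acot2, and 6.98% of all tested genes. All 9 estimates were above 0, with a median log2 fold change of 0.65, against -0.01 for all tested genes. On log2 (TPM + 1), limma called 2 of the 9, Acot1 and Angptl4, and Cpt1a and Plin2 had limma adjusted p of 0.0644 and 0.124. That fit called 35.9% of all tested genes, 5071 of them lower and 83 higher. Mice with IDs A36 to A39 leave out 1 WT Control and 3 WT T1D mice. In them edgeR called 7 of 9, all but Pdk4 and Ucp3, and 15.4% of all tested genes. A3905 and A3906 were then 2 of 3 WT T1D mice, and ID ranges still differed between the genotypes. The count was 0 of 9 without A3905 and A3906, in a fit that called 0 of the 14364 genes. All 9 estimates were again above 0 in that fit, with a median of 0.40. At an unadjusted p under 0.05, 8 of the 9 genes passed with all mice and 6 without these 2, against 22.2% and 11.0% of all tested genes. The 9 genes were chosen with earlier results of these data known, so these counts do not test the list.

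**Figure D2:**
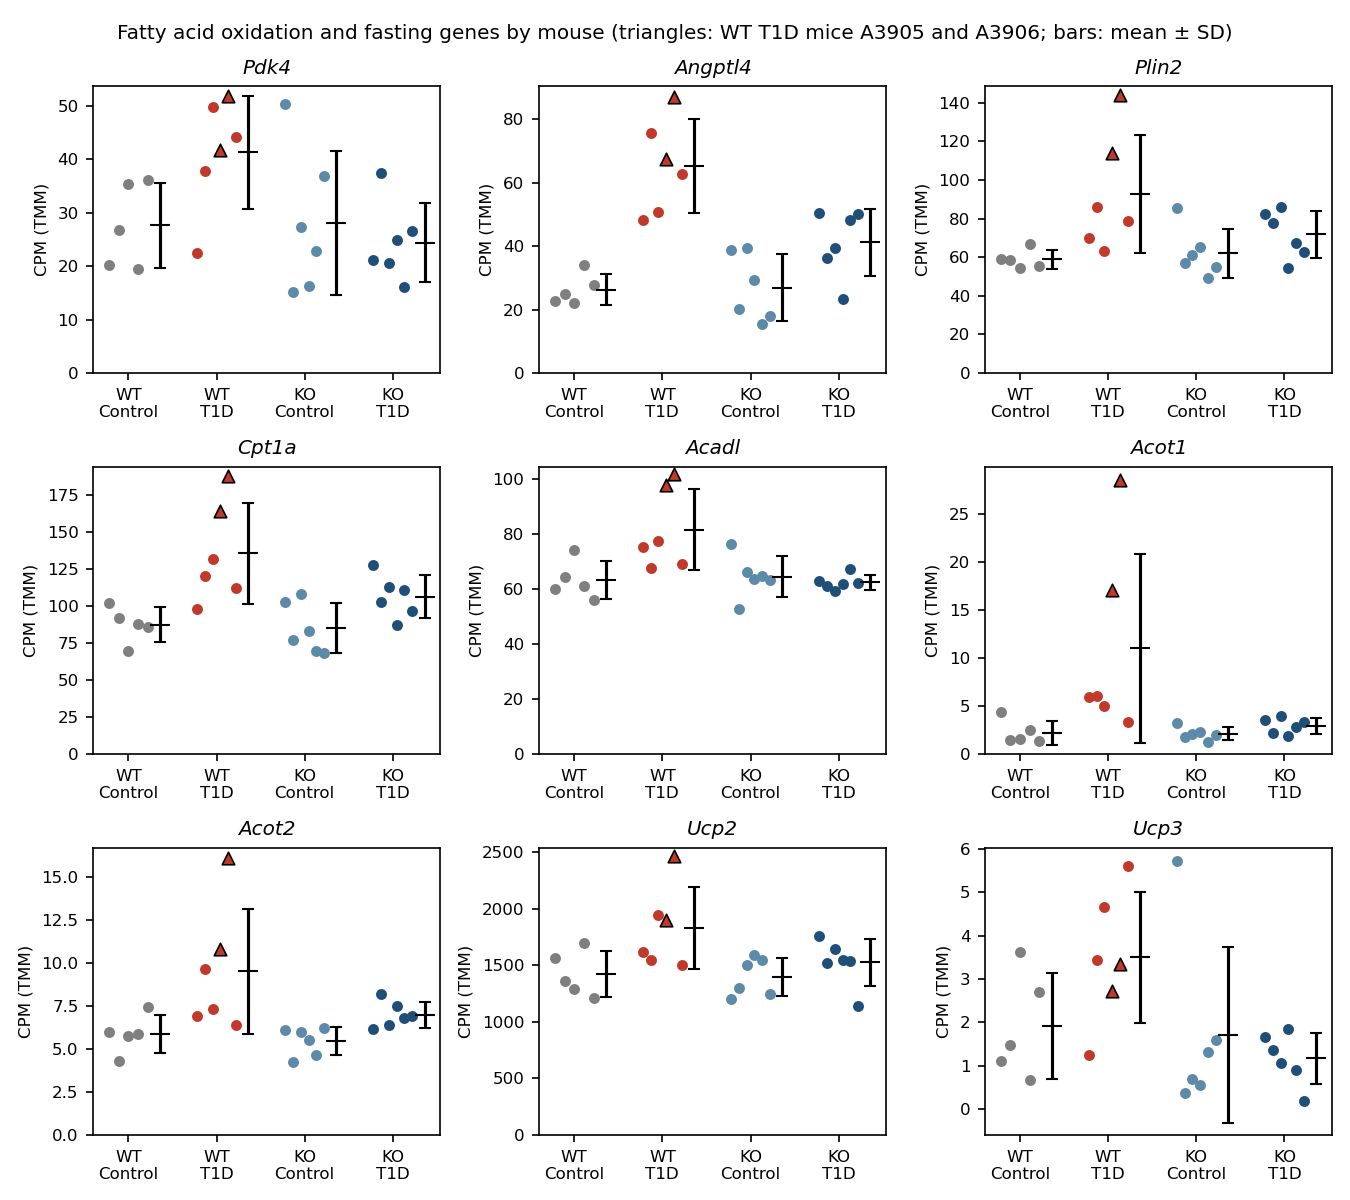
TMM-normalized CPM of each of the 9 genes, 1 point per mouse, with the mean and SD of each group at its right. Triangles mark WT T1D mice A3905 and A3906, which are the 2 highest mice for Plin2, Cpt1a, Acadl, Acot1, and Acot2.

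Angptl4, the lipase inhibitor, was the only one of the 9 genes whose WT groups did not overlap. It was at 22.6, 25.0, 22.1, 34.0, and 27.7 CPM in the 5 WT Control mice, and at 48.1, 65.0, and 86.9 CPM (lowest, median, highest) in WT T1D. Every WT T1D mouse lay above every WT Control mouse, which held for 1.32% of all tested genes. The log2 fold change was 1.31 ± 0.24 (SE), a 2.48-fold rise in the fit, with an edgeR adjusted p of 0.0209. It was 1.17 without A3905 and A3906, whose Angptl4 was 67.3 and 86.9 CPM, with an edgeR adjusted p of 0.109.

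Plin2, the droplet coat protein, was at 59.0, 58.5, 54.6, 66.9, and 55.5 CPM in WT Control mice. It was at 63.0, 82.6, and 144 CPM (lowest, median, highest) in WT T1D. The groups overlapped by 1 T1D mouse, and A3905 and A3906 were highest, at 114 and 144 CPM. The log2 fold change was 0.65 ± 0.18 (SE), with an edgeR adjusted p of 0.0494, just inside the threshold. Without these 2 mice it was 0.34, with an edgeR adjusted p of 0.378.

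Cpt1a, the gate for fatty acids into mitochondria, was at 102, 91.9, 69.5, 87.9, and 86.1 CPM in WT Control mice. In WT T1D it was at 98.0, 126, and 188 CPM (lowest, median, highest), and 5 of the 6 T1D mice lay above every Control mouse. The log2 fold change was 0.64 ± 0.15 (SE), with an edgeR adjusted p of 0.0446. Without A3905 and A3906 it was 0.40, with an edgeR adjusted p of 0.316.

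Acot1, the cytosolic thioesterase, had the largest estimate and the widest spread. It was at 4.33, 1.43, 1.53, 2.48, and 1.32 CPM in WT Control mice, and in WT T1D at 5.97, 6.04, 4.99, 17.1, 28.5, and 3.33 CPM in mice A1764, A1787, A1758, A3905, A3906, and A3909. Both mice that stood apart were far above the rest, and 3 of the other 4 T1D mice also lay above every Control mouse. The log2 fold change was 2.31 ± 0.47 (SE), with an edgeR adjusted p of 0.0294. Without A3905 and A3906 it was 1.19, with an edgeR adjusted p of 0.288.

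Acot2, the mitochondrial thioesterase, lies next to Acot1 on chromosome 12 of GRCm38.p6, from 83987861 to 83993877, with Acot1 from 84009502 to 84017670. The genes are close copies, so estimated counts may have been split between them. Acot2 was at 5.97, 4.28, 5.76, 5.86, and 7.44 CPM in WT Control and at 6.39, 8.49, and 16.1 CPM (lowest, median, highest) in WT T1D. Its log2 fold change of 0.70 ± 0.20 (SE) did not pass, with an edgeR adjusted p of 0.0524, and passed under DESeq2, with an adjusted p of 0.0184. The sum of both genes, which such a split cannot alter, was 8.08 ± 1.71 CPM in WT Control (SD, n = 5) and 20.5 ± 13.4 CPM in WT T1D (SD, n = 6).

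The other 4 genes did not pass in WT mice with edgeR. Acadl, the β-oxidation dehydrogenase, had a log2 fold change of 0.37 ± 0.10 (SE) and an edgeR adjusted p of 0.0545, with 4 of 6 T1D mice above every Control mouse, and a DESeq2 adjusted p of 0.0202. Ucp2 had 0.36 ± 0.13 (SE) and an edgeR adjusted p of 0.112. Pdk4 went from a mean of 27.6 ± 7.98 CPM in WT Control (SD, n = 5) to 41.3 ± 10.5 CPM in WT T1D (SD, n = 6), and 5 of 6 T1D mice lay above every Control mouse. Its log2 fold change was 0.58 ± 0.28 (SE), with an edgeR adjusted p of 0.221. Ucp3 had 0.87 ± 0.58 (SE), with an edgeR adjusted p of 0.388.

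The calls in WT mice also depended on single Control mice. No member passed when WT Control mouse A3767, A3903, or A3907 was left out, in fits that called between 0 and 3 genes in all. Angptl4 alone passed without WT Control mouse A3904 or without WT T1D mouse A3905 or A3906. Over the 23 fits that each left out 1 mouse, the log2 estimates went from 1.22 to 1.42 for Angptl4, from 1.76 to 2.70 for Acot1, and from 0.65 to 1.23 for Ucp3.

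Upstream sequence was read for 8 of the 9 genes from RefSeq (GRCm38.p6) over the 250 bases before a single start of transcription per gene. That of Cpt1a lies inside the RefSeq span of the gene, which begins at 3322326. That of Ucp2 ends at 100493357, past the beginning of its gene span at 100493337. Other starts of these genes were not searched. Angptl4, which was also called, had no entry among the promoter sequences used and was not searched. Stretches of the called genes Acot1, Cpt1a, and Plin2 are shown because these rose together. Each is printed 5′ to 3′ on the strand of its gene. Capitals mark AGGTCA on either strand, the half-site read by PPAR and other nuclear receptors, or TGTTCT, the half-site of the glucocorticoid receptor.
Acot1, chr12:84009252-84009471, plus strand: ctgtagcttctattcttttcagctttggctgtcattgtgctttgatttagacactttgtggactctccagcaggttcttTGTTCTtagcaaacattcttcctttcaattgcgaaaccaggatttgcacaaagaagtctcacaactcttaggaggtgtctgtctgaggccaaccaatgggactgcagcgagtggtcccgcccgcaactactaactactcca
Cpt1a, chr19:3323051-3323270, plus strand: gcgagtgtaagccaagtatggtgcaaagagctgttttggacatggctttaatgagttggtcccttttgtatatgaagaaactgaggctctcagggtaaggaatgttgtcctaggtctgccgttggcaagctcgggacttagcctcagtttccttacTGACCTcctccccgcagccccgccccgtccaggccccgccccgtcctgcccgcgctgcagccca
Plin2, chr4:86670218-86670309, minus strand: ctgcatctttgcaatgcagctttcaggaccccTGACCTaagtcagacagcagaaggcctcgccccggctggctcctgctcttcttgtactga
AGGTCA on either strand was found in 3 of the 8 promoters, those of Cpt1a, Plin2, and Ucp3, and in 14.0% of all 32851 promoters of the same length. It began 94 bases before the start in Cpt1a and 218 bases before it in Plin2, reversed in both. Ucp3 held 2 copies, 149 and 44 bases before the start. The direct repeat AGGTCANAGGTCA, the full site of a PPAR dimer, was in none of the 8 and in 0.0335% of all promoters. The FOXO core GTAAACA was also in none of the 8 and in 3.17% of all promoters. TGTTCT was in 1 of the 8, that of Acot1, and in 16.1% of all promoters. A match is a run of letters and does not show binding.

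In mice labelled KO, no member passed for T1D against Control, where 0% of all tested genes were called. DESeq2 also called 0 genes in this comparison. The 9 estimates had a median log2 fold change of 0.21, with 6 above 0 and 3 below. At an unadjusted p under 0.05, 2 of the 9 passed, against 3.15% of all tested genes. These were Angptl4 and Cpt1a.

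Angptl4 was at 15.6, 24.8, and 39.4 CPM (lowest, median, highest) in KO Control and at 23.4, 43.8, and 50.4 CPM in KO T1D. The groups overlapped, and 3 of the 6 T1D mice lay above every Control mouse. The log2 fold change was 0.62 ± 0.22 (SE), with an edgeR adjusted p of 1.00. Cpt1a was at 68.4, 80.3, and 108 CPM in KO Control and at 87.0, 107, and 128 CPM in KO T1D, a log2 fold change of 0.32 ± 0.15 (SE) with an edgeR adjusted p of 1.00. Plin2 and Acot1 had estimates of 0.21 and 0.47. Acot1 spanned 1.27 to 3.26 CPM in KO Control and 1.84 to 3.98 CPM in KO T1D, so no KO T1D mouse reached the median of WT T1D.

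Pdk4, Acadl, and Ucp3 had estimates below 0 in these mice, at -0.20, -0.05, and -0.54. Acadl was at 64.5 ± 7.56 CPM in KO Control and 62.4 ± 2.69 CPM in KO T1D (SD, n = 6 in each). Pdk4 spanned 15.1 to 50.4 CPM in KO Control and 16.0 to 37.4 CPM in KO T1D.

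**Figure D3:**
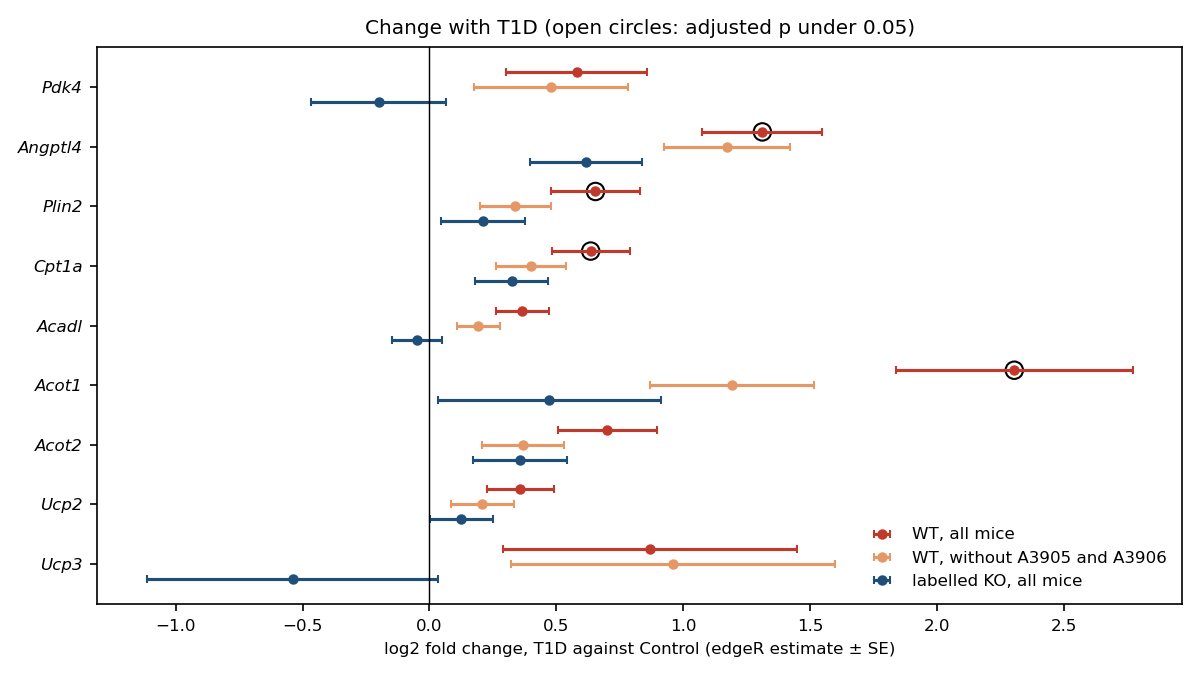
edgeR log2 fold changes of T1D against Control with their SE, for WT mice, for WT mice without A3905 and A3906, and for mice labelled KO. Open circles mark an adjusted p under 0.05, which Angptl4, Plin2, Cpt1a, and Acot1 reach with all WT mice and no gene reaches in the other series.

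The difference between the genotypes in the response to T1D was tested itself. No member passed in the interaction, where 0% of all tested genes were called, and DESeq2 also called 0 genes. At an unadjusted p under 0.05, 3 of the 9 passed, against 10.2% of all tested genes. All 9 estimates were below 0, that is, the change was smaller or more negative in mice labelled KO. Acot1 had -1.83 and Acadl -0.41 on the log2 scale, both with an edgeR adjusted p of 0.479. The rise in WT mice and the lack of calls in mice labelled KO are thus not shown to differ. Without A3905 and A3906 the same estimates were -0.72 for Acot1 and -0.24 for Acadl, and 1 of 9 passed at an unadjusted p under 0.05, against 4.66% of all tested genes.

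Nondiabetic mice labelled KO and WT did not differ past the threshold in any member, where 0.0278% of all tested genes were called. None of the 9 passed at an unadjusted p under 0.05, which 4.80% of all tested genes did, and DESeq2 called 0 of the 9. The estimates lay between -0.17 for Ucp3 and 0.08 for Plin2. Angptl4 averaged 26.3 ± 4.86 CPM in WT Control (SD, n = 5) and 26.9 ± 10.6 CPM in KO Control (SD, n = 6).

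Between diabetic mice, no member passed for KO against WT, where 0.0905% of all tested genes were called. All 9 estimates were below 0, with a median log2 fold change of -0.45, and all 9 passed at an unadjusted p under 0.05, which 17.1% of all tested genes did. This comparison shares the WT T1D mice with the first one. Acot1 was nearest to the threshold, with -1.90 ± 0.43 (SE) and an edgeR adjusted p of 0.0644. Acadl, with -0.38 ± 0.10 (SE) and an edgeR adjusted p of 0.0929, was higher in every WT T1D mouse than in any KO T1D mouse, at 67.8, 76.4, and 102 CPM against 59.2, 61.9, and 67.3 CPM (lowest, median, highest). It was the only 1 of the 9 without overlap in CPM in this comparison, as for 0.411% of all tested genes. In TPM the Acadl ranges overlapped, with a lowest of 45.04 in WT T1D and a highest of 48.72 in KO T1D. Under DESeq2, Acot1 and Acadl passed, with adjusted p of 0.00216 and 0.0217, as did 1.66% of all tested genes. Without A3905 and A3906 the edgeR estimates were -0.79 and -0.21, and 5 of 9 passed at an unadjusted p under 0.05, against 6.47% of all tested genes.

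Averaged over both genotypes, only Angptl4 passed for T1D against Control, where 0.111% of all tested genes were called. The log2 fold change was 0.96 ± 0.16 (SE), with an edgeR adjusted p of 0.0335. Without A3905 and A3906 it was 0.89, with an edgeR adjusted p of 0.0554. Cpt1a had 0.48 and an edgeR adjusted p of 0.0793, and Acot1 had 1.39 and 0.0829. DESeq2 called 5 of the 9 genes, adding Acot1, Acot2, Cpt1a, and Plin2, and 1.73% of all tested genes.

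Ucp3 and Pdk4 were set beside skeletal muscle markers. In KO Control mouse A3679, Ucp3 was 5.72 CPM and Pdk4 50.4 CPM, both the highest of their group, and the sum of 16 skeletal muscle markers was 10850 CPM against 921 to 4151 in the other KO Control mice. In every group, the mouse with the highest sum also had the highest Ucp3. This was 3.62 CPM in WT Control mouse A3903, 5.61 in WT T1D mouse A3909, and 1.84 in KO T1D mouse A3674. Some mice did not follow this order. WT T1D mouse A1764 had a sum of 5803 CPM and the lowest Ucp3 and Pdk4 of its group, at 1.24 and 22.5 CPM. KO T1D mouse A3676 had the lowest sum and the lowest Ucp3 of its group, 0.196 CPM, but its second highest Pdk4, 26.6 CPM. The marker sum spanned 1810 to 11600 CPM in WT Control, 3020 to 7260 in WT T1D, and 275 to 5800 in KO T1D, and none of the 16 markers was at 0 in every mouse. Covariates were not these sums but the mean log2 (CPM + 0.5) over the tested markers of a list, which weights each marker equally. With the skeletal muscle covariate, the KO estimate of T1D against Control went from -0.54 to 0.24 for Ucp3. That of Pdk4 went from -0.20 to 0.03. The Angptl4 estimate in WT mice was 1.35, with an edgeR adjusted p of 0.0159. Adipocyte markers, of which none of 10 was at 0 in every mouse, summed to 855 to 1410 CPM in WT Control and 706 to 1230 CPM in WT T1D. Of the 8 adipocyte markers tested, 7 had estimates above 0 in WT mice and 1 was called higher, Fabp4. Erythroid markers summed to 99700 to 146000 CPM in WT Control and 129000 to 242000 CPM in WT T1D, and 8 of 14 were called higher. The adipocyte list holds Fabp4, Cidec, and Plin1, which are also in the lists of uptake and droplet genes below. The adipocyte covariate is thus not independent of a change in lipid genes. With the adipocyte or the erythroid covariate, 0 of 9 members and 0 of all genes were called in WT mice. The Angptl4 estimate was 1.10 and 1.15. Acot1 went from 2.31 to 1.13 with the adipocyte covariate and to 0.98 with the erythroid covariate. Plin2 went from 0.65 to 0.36 and 0.37, Cpt1a from 0.64 to 0.48 and 0.27, and Ucp2 from 0.36 to 0.23 and 0.02. The part of these cells in the members' change was not tested.

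**Figure D4:**
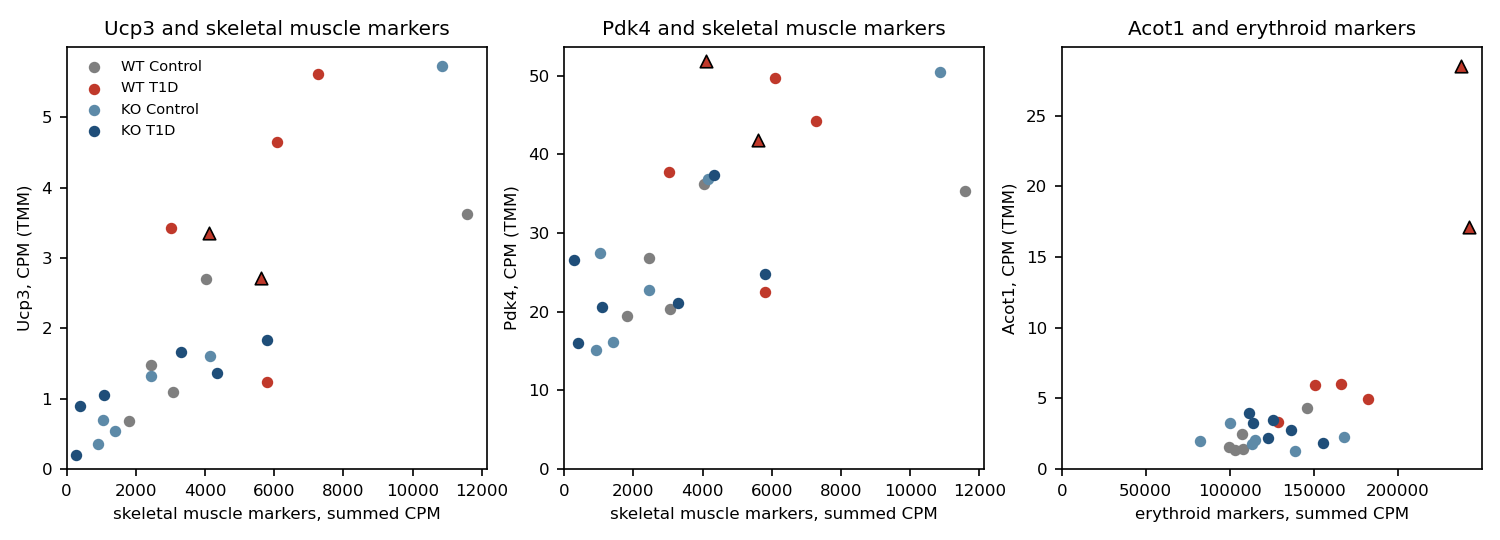
CPM of Ucp3 and Pdk4 against the summed CPM of 16 skeletal muscle markers, and of Acot1 against the summed CPM of 14 erythroid markers, 1 point per mouse and color by group. Triangles are WT T1D mice A3905 and A3906, which have the 2 highest values of both Acot1 and the erythroid sum.

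The genes whose levels over the 23 mice were most like those of each member were taken from 13307 tested genes with a mean of at least 1 CPM. All mice share one tissue, and the groups differ, so these correlations of log2 (CPM + 0.5) describe the libraries and carry no test. Angptl4 and Cpt1a were each other's nearest gene, with a Pearson r of 0.875, and 0.845 without A3905 and A3906. Slc25a20, which exchanges acylcarnitines across the inner mitochondrial membrane, was among the nearest 3 of Angptl4 (r = 0.834) and Plin2 (r = 0.893), and Nfe2l2 was nearest to Plin2 (r = 0.898). Klf11 was also among the nearest to Angptl4 (r = 0.836). Plin2 and Acot1 were both among the nearest to Cpt1a, at 0.866 and 0.865, and at 0.727 and 0.725 without A3905 and A3906.

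Car1 and Rxylt1 were among the nearest to Acot1, at r = 0.903 and 0.902, but at 0.686 and 0.645 without A3905 and A3906. Mllt3 and Rabgef1 were among the nearest to Acot2, at 0.846 and 0.827, and that of Rabgef1 was 0.619 without these mice. Acadl was nearest to Cd36 (r = 0.905), Acaa2, and Fabp4, which fell to 0.746, 0.673, and 0.598 without these mice. Pdk4 was nearest to Ucp3 (r = 0.819), Klhl38, and Mettl22, and Ucp3 to Ipo13 (r = 0.849) and to the muscle genes Tcap and Cavin4. Ucp2 was nearest to Slc7a5 (r = 0.936), Kit, and the heme-regulated kinase Eif2ak1.

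Other genes of the same pathways were counted by list. For T1D in WT mice these counts stand beside 2.33% of all tested genes called by edgeR, 6.98% by DESeq2, and 22.2% with an unadjusted p under 0.05 in edgeR. Among 21 tested genes of fatty acid uptake, activation, and the carnitine shuttle, 3 rose and 0 fell with T1D in WT mice. They were the fatty acid transporter Cd36, Slc25a20, and the fatty acid binding protein Fabp4. Cd36 averaged 34.0 ± 7.60 TPM in WT Control (SD, n = 5) and 51.4 ± 12.7 TPM in WT T1D (SD, n = 6), a scale that set the groups apart differently from TMM-scaled counts. On TMM-scaled counts its log2 fold change was 0.93 ± 0.18 (SE), with an edgeR adjusted p of 0.0251. Fabp4, also an adipocyte and endothelial gene, had 1.36, and Slc25a20 had 0.78. The median of the list was 0.20. Cd36 was also the only gene of the 7 lists called between genotypes, lower in KO T1D than in WT T1D by a log2 fold change of -0.86 with an edgeR adjusted p of 0.0489. It was -0.50 without A3905 and A3906, with an edgeR adjusted p of 0.270. Fabp3, a muscle fatty acid binding protein, had 0.87 in WT mice and did not pass. Among 17 enzymes of mitochondrial β-oxidation, 0 passed with edgeR and 2 with DESeq2, and 6 had an unadjusted p under 0.05, 5 of them higher. Their median was 0.14, and the largest estimates were 0.57 for Eci2, 0.57 for Acaa2, and 0.31 for Etfdh.

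Of 14 lipid droplet and lipolysis genes, 0 passed with edgeR and 4 with DESeq2 in WT mice, 7 had an unadjusted p under 0.05, and the median was 0.27. The droplet proteins Cidec, Plin4, and Plin1 had the largest estimates, 2.04, 1.11, and 1.05. Of 13 peroxisomal genes 1 rose, Cat, the hydrogen peroxide decomposing catalase, by a log2 fold change of 0.44 ± 0.08 (SE) with an edgeR adjusted p of 0.0174, and the list had a median of 0.03. Ehhadh and Ech1 had 0.50 and 0.23.

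Of 23 fasting, FOXO, and insulin-repressed genes, 2 rose in WT mice. They were Txnip, which restrains glucose uptake, by 0.57 ± 0.12 (SE) with an edgeR adjusted p of 0.0367, and Pck1, the gluconeogenic enzyme, by 3.30 ± 0.86 (SE) with an edgeR adjusted p of 0.0476. Pck1 was low in all groups, at 0.196 ± 0.176 TPM in WT Control and 1.46 ± 1.70 TPM in WT T1D. The clock gene Per1 and the muscle ubiquitin ligase Trim63 had 1.01 and 1.06 and did not pass. The list's median was 0.24. Among 11 genes of pyruvate dehydrogenase and its regulators, 0 passed and 2 had an unadjusted p under 0.05. The phosphatase Pdp2 had -0.44, Pdp1 -0.18, and the kinase Pdk1 0.24. Among 15 PPAR receptors and coactivators, 0 passed and 4 had an unadjusted p under 0.05. Ppard and Rxra had -0.29 and -0.28, and Ppargc1a had 0.70. DESeq2 called 0 genes in each of the last 2 lists. The medians were 0.03 in both.

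Without A3905 and A3906, none of these 6 called genes passed in WT mice. Their estimates were 0.57 for Cd36, 0.58 for Slc25a20, 0.45 for Fabp4, 0.43 for Cat, 0.35 for Txnip, and 1.52 for Pck1. Among the named genes not called, Cidec, Plin4, and Plin1 then had 0.86, 0.47, and 0.46. Eci2, Acaa2, and Etfdh had 0.17, 0.23, and 0.10, and Ehhadh and Ech1 0.06 and 0.19. Per1 and Trim63 had 0.83 and 0.19, and Fabp3 0.95. Pdp2, Pdp1, and Pdk1 had -0.235, -0.11, and 0.07. Ppard, Rxra, and Ppargc1a had -0.17, -0.20, and 1.11. In mice labelled KO no gene of the 7 lists passed, and Txnip had 0.30. Averaged over both genotypes, Cat and Txnip passed, at 0.27 and 0.44, both with an edgeR adjusted p of 0.0421. Neither passed without A3905 and A3906, with an edgeR adjusted p of 0.109 for Cat and 0.0656 for Txnip.

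**Figure D5:**
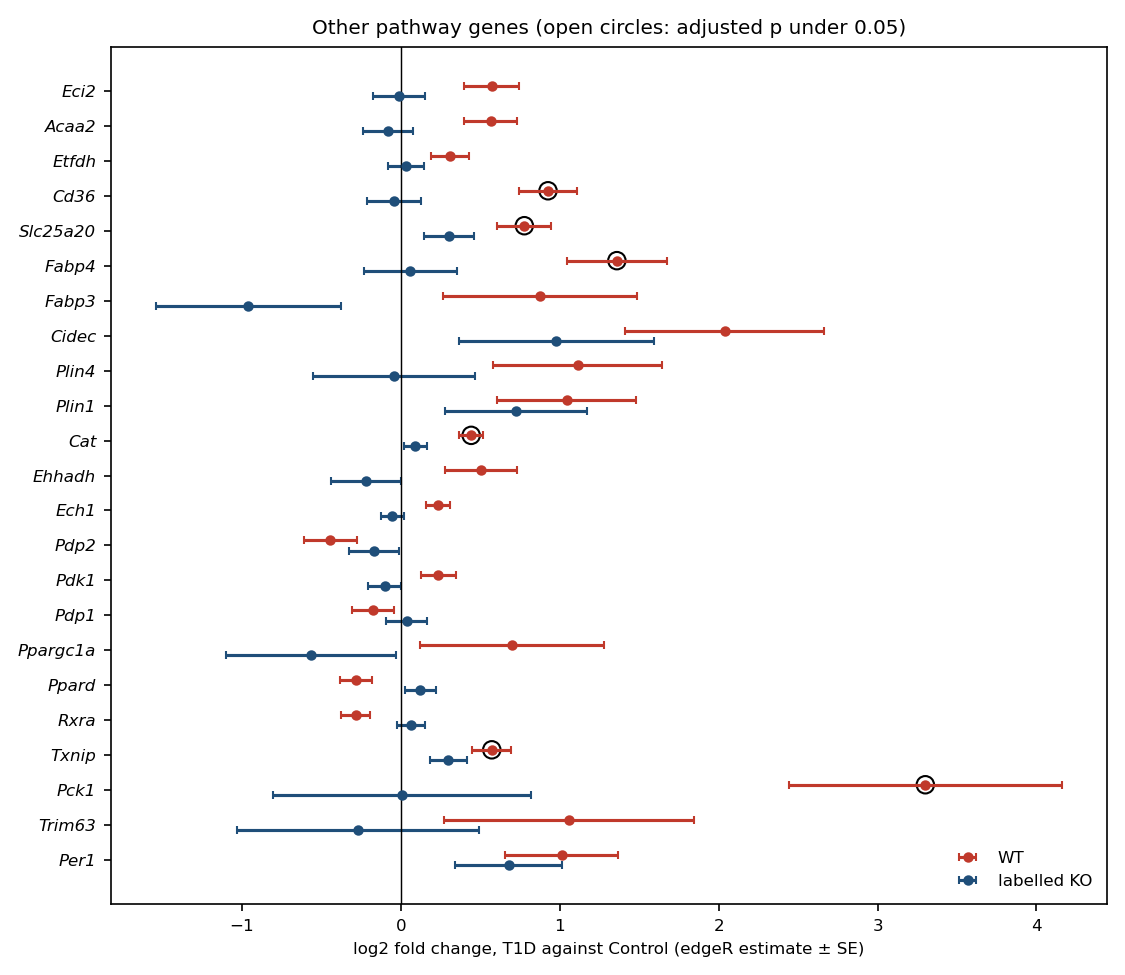
edgeR log2 fold changes of T1D against Control with their SE for the named genes of the 7 pathway lists, in WT mice and in mice labelled KO. Open circles mark the 6 genes with an adjusted p under 0.05 in WT mice, and Pck1 has the largest estimate and a wide error.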

How the data were processed

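RNA-Seq libraries of marrow-depleted bone from 23 mice were grouped by the genotype and disease in their labels. The authors deposited expected counts, estimated per gene with RSEM and rounded to whole numbers, and TPM values from the sequencing provider. SOAPnuke had filtered the reads, and both HISAT and Bowtie2 had been used to align them to GRCm38.p6. Versions are not given in the sources used here. These steps were not repeated, and gene-level counts of close copies depend on how RSEM split their reads. Each value rests on 16938101 to 20135592 counts per mouse.

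The 14364 genes that reached 10 counts in 5 or more mice were tested. Counts were scaled with TMM, which is relative to the other libraries, and fitted with edgeR 4.0.16 (quasi-likelihood, 1 mean per group, all 23 mice) in R 4.3.3. Contrasts gave 6 comparisons, with p values adjusted by the Benjamini-Hochberg method over all tested genes and a threshold of 0.05. Alternatives used DESeq2 1.42.0, limma 3.58.1 on log2 (TPM + 1) and log2 (TPM + 0.1), RLE scaling, and no filter. Others used only the 2 groups compared, only mice with IDs A36 to A39, marker covariates, and mice left out. Each marker covariate was the mean log2 (CPM + 0.5) over the tested markers of a list. Tables and figures used Python 3.11.15, pandas 2.3.3, numpy 2.4.6, and matplotlib 3.10.9. The edgeR fit was also run on simulated counts with known changes, and the outcome of that run is not given here.

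The 9 genes and all lists were chosen with earlier results of these data known. Beside the 9 genes and Sarm1, the text names the 3 genes most correlated with each of them, except for 1 gene that is not reported here, nor is the list that held it. Of each list it names up to 5 genes past the threshold and the 3 with the largest change in WT mice among those with a mean of at least 1 CPM. Promoters were searched in the RefSeq table, in the same build.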

Additional observations from a re-analysis of the deposited data

Results flagged for a closer look

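In KO Control mice, Ucp3 was 3.55 TPM in mouse A3679, while the next highest mouse had 1.03 TPM and the lowest 0.23 TPM. The gap took up 0.759 of the group's range and exceeded the 95% critical value of Dixon's test for 6 mice. This was the only such mouse in 36 tests of the 9 genes in 4 groups, and chance alone flags about 1 group in 20. A3679 also had the highest sum of skeletal muscle markers in its group, 10850 CPM, and the highest Pdk4, 22.01 TPM. Whether that muscle accounts for its Ucp3 was not tested.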

How the results depend on the processing

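No paired analysis was possible because the groups share no mouse numbers. Depth limits mainly Ucp3, and with 5 or 6 mice a group 1 mouse can decide a call.

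Members called for T1D in WT mice were 4, and 215 genes were called higher and 119 lower in all, 334. With DESeq2 there were 6 members and 1002 genes, with RLE scaling 4 and 317, and without the count filter 2 and 88. With limma there were 2 members on log2 (TPM + 1) and 2 on log2 (TPM + 0.1), and 5154 and 5173 genes, of which 83 and 80 were higher. Mice with IDs A36 to A39 gave 7 members and 2205 genes, 1114 of them higher. The fit to only the 2 groups, the fit without A3905 and A3906, and the adipocyte and erythroid covariates gave 0 and 0 each, and the skeletal muscle covariate 5 and 603. Leaving out 1 mouse gave 0 to 6 members and 0 to 1264 genes. Members were 2 without KO Control A3670, A3673, A3679, or A3680, KO T1D A3675, A3676, A3681, or A3682, or WT T1D A1787, and 6 without WT T1D A1758, A1764, or A3909.

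For KO against WT in T1D mice, members called were 0, and 2 with DESeq2, 1 with limma on either TPM scale, and 5 in mice A36 to A39, and 0 to 2 with 1 mouse left out (1 without A1758 or A1787, 2 without A3909). The 13 genes called became 5 with RLE scaling, 239 with DESeq2, 3 without the filter, 1166 and 1185 with limma on log2 (TPM + 1) and log2 (TPM + 0.1), 1538 in mice A36 to A39, and 4 each with only 2 groups, without A3905 and A3906, and with the adipocyte or erythroid covariate, and 3 to 95 with 1 mouse left out. In the average over genotypes, 1 member and 16 genes became 5 and 249 with DESeq2, 3 and 1106 with limma on log2 (TPM + 1), 3 and 951 on log2 (TPM + 0.1), 5 and 537 in mice A36 to A39, 0 and 4 without A3905 and A3906, and 0 and 0 with the adipocyte or erythroid covariate. Leaving out 1 mouse gave 0 to 4 members and 0 to 210 genes, with 0 members without KO Control A3680 or A3766, KO T1D A3675, A3681, or A3683, WT Control A3767, A3903, or A3907, or WT T1D A3905 or A3906, 2 without A1757, A1758, or A1764, and 4 without A3909. Limma on log2 (TPM + 1) called 2 genes in the interaction, and leaving out 1 mouse gave 0 to 1 gene for T1D in mice labelled KO. The cause of these shifts was not tested.

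No estimate that changed sign was called. For T1D in mice labelled KO the skeletal muscle covariate gave 0.027 for Pdk4 and 0.243 for Ucp3. In the interaction Ucp2 was 0.004 on both TPM scales and 0.054 with the erythroid covariate. In the average Acadl was -0.011 on both TPM scales. For KO against WT in T1D mice Acot2 was 0.017 with the adipocyte covariate. For KO against WT in Control mice, log2 (TPM + 1) and log2 (TPM + 0.1) gave -0.085 and -0.099 for Pdk4, -0.075 and -0.082 for Angptl4, and -0.013 and -0.013 for Acadl. Mice A36 to A39 gave -0.064 for Pdk4, -0.009 for Angptl4, 0.026 for Cpt1a, 0.328 for Acot1, and 0.013 for Ucp2, the muscle covariate -0.003 for Angptl4, and the adipocyte covariate 0.014 for Cpt1a, 0.271 for Acot1, 0.103 for Acot2, and 0.024 for Ucp2. With 1 mouse left out, this comparison ranged from -0.025 to 0.095 for Acadl, -0.234 to 0.322 for Acot1, -0.106 to 0.151 for Angptl4, -0.122 to 0.020 for Cpt1a, -0.225 to 0.150 for Pdk4, -0.036 to 0.135 for Plin2, -0.084 to 0.041 for Ucp2, and -1.081 to 0.188 for Ucp3. T1D in mice labelled KO ranged from -0.099 to 0.007 for Acadl, -0.362 to 0.048 for Pdk4, and -0.746 to 0.369 for Ucp3. In WT mice no estimate of the 9 genes changed sign under any alternative run.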
